A study of Oryza sativa with 6 samples.

Results

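Protease inhibitor loci of the rice mesocotyl that stood high at 1 day of darkness and low afterwards are described here. They were chosen by their gene names, ZS01g0031600 and ZS12g0413600, which had themselves been picked for a fall in FPKM (a fragment abundance corrected for transcript length and sequencing depth) after 1 day of darkness. The gene names were found in 3 of the 35500 rows of the authors' deposited table. The first row merges ZS01g0031600 with ZS01g0031700 and carries the product name Bowman-Birk type bran trypsin inhibitor. The second merges ZS12g0413500, ZS12g0413600, ZS12g0413700, ZS12g0413800 and ZS12g0413900, with product names that include subtilisin-chymotrypsin inhibitor-2A and CI-1B, and is called the inhibitor cluster below. The third holds 1 assembled transcript under ZS12g0413600 alone and has no product name.

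Poly(A) RNA of the mesocotyl came from P25, an indica cultivar of rice. The mesocotyl is the axis below the coleoptile, which lengthens in darkness and pushes the shoot upwards. Each of 6 RNA pools gave 1 library: seedlings kept in the dark until 1, 3 or 5 days from sowing, and seedlings moved into light after 5 days of darkness and taken 30 min, 60 min or 24 h later. The series title places these libraries in a study of how light inhibits mesocotyl elongation. With 1 library a group there is no replicate error, so no p-value is given, and every difference compares these libraries only. In bulk tissue, fewer cells of a type and less RNA per cell cannot be told apart.

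Protease inhibitors are small proteins that block the active site of protein-cutting enzymes. Bowman-Birk inhibitors are cysteine-rich proteins that act on trypsin and chymotrypsin, and in grasses several of their genes respond to wounding. Subtilisin-chymotrypsin inhibitors belong to the potato inhibitor I family, known from barley grain as CI-1 and CI-2, and act on chymotrypsin and on subtilisins of microbes. Both kinds are regarded as defence and storage proteins of seeds and seedlings, where proteases also mobilise reserves.

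The Bowman-Birk locus (ZS01g0031600 and ZS01g0031700) was the row with the third highest value of the 1-day dark library, at 6222 FPKM. At 3 days of darkness its listed value was 0, and 5 days gave 5.07 FPKM. In light it was listed at 0 after 30 min, at 1.27 FPKM after 60 min and at 0 after 24 h. The 1-day library was therefore the only one in which this row exceeded 10 FPKM.

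An adjoining row carries ZS01g0031700 alone, as 1 assembled transcript with no product name, and it was not listed at 0 in any library. This row stood at 3218 FPKM at 1 day, 115 at 3 days and 187 at 5 days of darkness. In light it stood at 75.6 FPKM after 30 min, 102 after 60 min and 87.9 after 24 h. The 1-day level was 27.9 times that at 3 days and 17.2 times that at 5 days. Both rows share the gene name ZS01g0031700, so reads could be assigned to either, and the 0 of the merged row does not show that no transcript of these genes was present. An exact 0 can be a failed estimate: each library had from 4 to 10 loci with a 0 that exceeded or equalled 10 FPKM in all of the remaining 5.

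The inhibitor cluster (ZS12g0413500 to ZS12g0413900) ranked sixth in the 1-day library, at 3204 FPKM. It stood at 18.4 FPKM at 3 days and 87.0 at 5 days of darkness, while the 30-min, 60-min and 24-h light libraries gave 206, 147 and 79.2 FPKM. From highest to lowest, the libraries were 1 day, 30 min, 60 min, 5 days, 24 h and 3 days. The 1-day library stands far above the rest, the 3-day library lowest, and the 5-day dark and 24-h light levels lay close together. The row is made of 12 transcripts, of which 7 were assembled by the authors, under 5 gene names, so the shares of the single genes cannot be read from it.

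The third row, the lone transcript under ZS12g0413600, stood at 44.1 FPKM at 1 day and was listed at 0 in each of the other 5 libraries. All 3 rows thus had their highest value at 1 day, which is what they were chosen for. Together with the row of ZS01g0031700 alone they made up 3.53% of the summed FPKM of the 1-day library. In the later libraries that share lay between 0.0398% at 3 days and 0.0794% at 5 days.

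**Figure D1:**
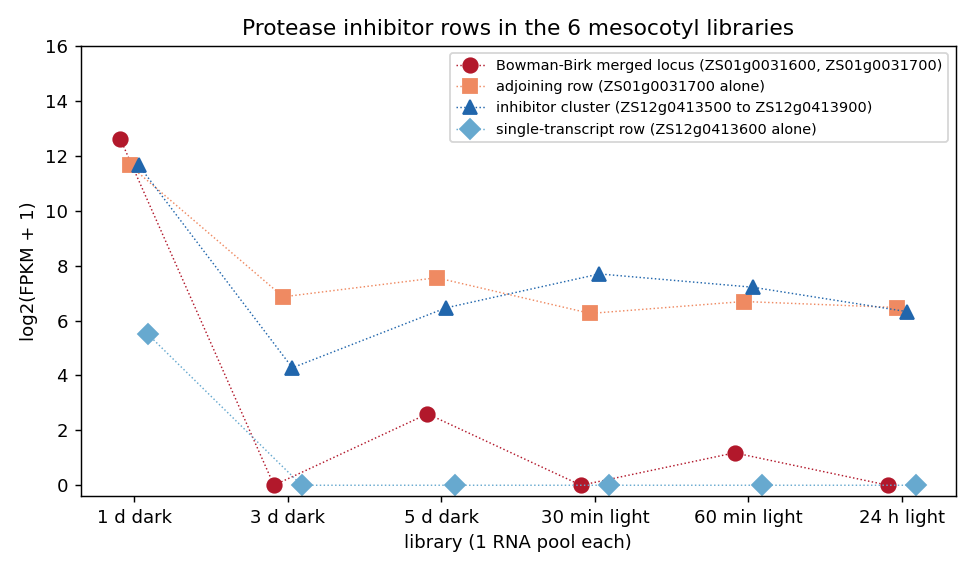
Level of the 3 protease inhibitor rows and of the row of ZS01g0031700 alone, as log2(FPKM + 1), in each of the 6 libraries (1 point per library, no replicates; dotted lines only join the points of a row). All 4 rows are highest at 1 day; the inhibitor cluster is lowest at 3 days and stands at 206 FPKM after 30 min of light, whereas the Bowman-Birk merged row is listed at 0 at 3 days, 30 min and 24 h.

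Between 1 and 3 days of darkness the inhibitor cluster was 174 times lower at 3 days, a log2 difference of -7.37 with 1 FPKM added to both values. On this scale it ranked seventh from the lowest of 23787 loci that reached 1 FPKM in some library. The merged Bowman-Birk row and the lone ZS12g0413600 transcript were listed at 0 at 3 days, so no fold is given for them. All 3 rows were at least 2-fold lower, against 14.5% of all loci lower and 13.5% higher. Since the rows were chosen on this difference, nothing is read from that count or from the rank of the cluster. At 5 days, where 11.4% of loci were lower than at 1 day, the merged Bowman-Birk row stood 1228 times lower and the inhibitor cluster 36.8 times lower. The figure of 1228 rests on 5.07 FPKM in a row that may share reads with that of ZS01g0031700 alone. The latter row stood 17.2 times lower, so the folds of the merged row and the cluster are not compared. The rows were picked for a fall from 1 day, so nothing is read from these values either.

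Loci with a similar course were looked up over all rows. Of 534 loci at 100 FPKM or more at 1 day, 17 stood 10-fold or more below that level in each of the 5 later libraries. The merged Bowman-Birk row, the row of ZS01g0031700 alone and the inhibitor cluster were among these 17. Since the chosen rows were picked for a fall from 1 day, nothing is read from their presence. No such count was made with another library as the high one. Only ZS11g0104200, a hypothetical protein, and a merged leaf-specific thionin locus headed by ZS06g0410000 stood above the merged Bowman-Birk row at 1 day among them, with 7824 and 7641 FPKM. Thionins are small antimicrobial peptides. The thionin locus stood at 434 FPKM at 3 days and at 47.6 after 30 min of light. Near it in gene number, ZS06g0411400 and ZS06g0412800, without product names, are also among the 17, with 740 and 577 FPKM at 1 day. The merged Bowman-Birk row and its adjoining row share a gene name, so the 17 need not all be separate genes. Others of the 17 were cortical cell-delineating protein (ZS10g0446300), with 854 FPKM at 1 day against 47.7 at 3 days, and arginine decarboxylase 2 (ZS04g0016800), an enzyme of polyamine synthesis, with 495 against 26.5. The thresholds of 100 FPKM and 10 times, and the loci named here, were chosen after their values had been seen.

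**Figure D2:**
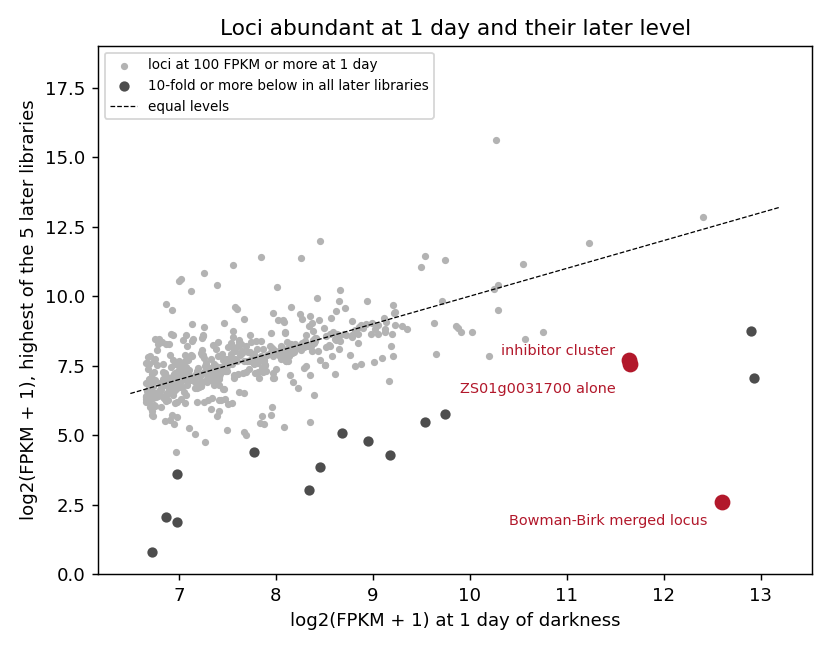
Each point is 1 of the 534 loci at 100 FPKM or more at 1 day; the horizontal axis gives log2(FPKM + 1) at 1 day and the vertical axis the highest log2(FPKM + 1) of the 5 later libraries. Dark and red points are the 17 loci 10-fold or more below in all later libraries, and the merged Bowman-Birk row, the inhibitor cluster and the row of ZS01g0031700 alone (red) lie below the dashed line of equal levels at its upper end.

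Markers of seed tissues were mixed in the 1-day library. None of 4 oleosin loci, which encode oil-body proteins of embryo and aleurone, reached 1 FPKM in any library, and their summed level ranged from 0 to 0.466 FPKM. Of 11 seed storage protein loci, 2 reached 1 FPKM, and these went opposite ways. The vicilin-like ZS03g0226600 was highest at 1 day, at 1.72 FPKM against no more than 0.217 later (log2 difference -1.16 from 1 to 3 days). The 11S globulin ZS01g0815700 was lowest at 1 day, at 0.148 FPKM against 5.85 at 5 days. The summed level of the 11 loci was 1.97 FPKM at 1 day and between 0.967 and 6.23 FPKM in the other libraries. Alpha-amylases, the starch-degrading enzymes of aleurone and scutellum, summed to 15.6 FPKM at 1 day and to between 16.1 and 35.8 later. Most of this came from 1 locus, probable alpha-amylase 2 (ZS04g0489400), with 15.4 FPKM at 1 day and 30.0 at 5 days. Isozyme 2A (ZS06g0647300) stood at 0.138 FPKM at 1 day and between 1.12 and 6.08 later. The summed level of each of the 3 lists was thus not highest at 1 day, whereas that of the single vicilin-like locus was. The part of seed tissue in the 1-day inhibitor levels was not tested. No gene list that defines the mesocotyl itself was used.

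From 3 to 5 days of darkness the inhibitor cluster was 4.73 times higher, a log2 difference of 2.18. Of the loci tested, 14.5% were higher by the 2-fold rule and 4.79% lower, with a median over loci of 0.27. In the 3-day library the locus ZS07g0251700 held 14.9% of the summed FPKM. With libraries scaled by the median ratio instead, all loci had a median of 0 and the cluster a difference of 1.78. The share of higher among called loci was then 56.8% in place of 75.2%. The row of ZS01g0031700 alone stood 1.62 times higher at 5 days (log2 difference 0.70), and the lone ZS12g0413600 transcript was listed at 0 in both libraries.

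After 30 min of light the cluster and the Bowman-Birk rows took opposite directions. The inhibitor cluster stood 2.37 times higher than in the 5-day dark library (log2 difference 1.24), in a comparison with 9.49% of loci 2-fold or more higher and 11.4% lower. The row of ZS01g0031700 alone stood 2.48 times lower (-1.30), and the merged Bowman-Birk row, at 5.07 FPKM in the dark, was listed at 0. The 30-min level of the cluster remained far below its 1-day level of 3204 FPKM.

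After 60 min of light the cluster stood 1.69 times above the 5-day dark level (log2 difference 0.75), short of the 2-fold rule, where 14.8% of all loci were higher and 12.8% lower. The merged Bowman-Birk row stood lower, with 1.27 against 5.07 FPKM (-1.42), and the row of ZS01g0031700 alone 1.83 times lower (-0.87). The 60-min library also held 796 summed FPKM of the 7 chlorophyll a/b binding proteins of the light-harvesting antenna, with all 7 loci at least 2-fold above the 5-day dark library and none of them listed at 0. The other 5 libraries held between 16.4 and 62.6 summed FPKM. Of the 7 loci, 1 merges an antenna gene with a probable succinyl-CoA ligase gene (ZS07g0476900 and ZS07g0477000). At 3 days this merged locus gave all of the 16.4 FPKM, and every other antenna locus was listed at 0. It also gave 37.9 of 39.2 FPKM at 1 day and 25.1 of 62.6 at 5 days. In light it gave 24.4 of 24.7 FPKM after 30 min and 29.4 of 41.4 after 24 h. At 60 min it gave 84.1 of the 796 FPKM. Against 5 days of darkness, 5 of the 7 were at least 2-fold lower after 30 min and 0 higher (71.4% lower, beside 11.4% of all loci). After 24 h 3 were lower and 0 higher (42.9% lower, beside 14.4%). The part of this green-tissue signal in the inhibitor values of the 5-day dark and light libraries was not tested.

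After 24 h of light the cluster was back near the 5-day dark level, at 79.2 against 87.0 FPKM (log2 difference -0.13), in a comparison with 11.6% of loci 2-fold or more higher and 14.4% lower. Relative to 60 min the cluster stood 1.86 times lower (-0.89). The row of ZS01g0031700 alone stood 2.13 times below the 5-day dark level (-1.08). Since every light library was set against the same 5-day dark library, these comparisons are not independent of each other.

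The deposited annotation ties the inhibitor cluster to the gene ontology term response to wounding, held by 163 loci. The other chosen rows carry no gene ontology annotation at all. This group was looked up after the annotation of the cluster had been seen, and the cluster is 1 of its 130 loci with at least 1 FPKM. After 30 min of light 36 of the 130 were at least 2-fold higher and 14 lower (27.7% and 10.8%, beside 9.49% and 11.4% of all loci), with a median log2 difference of 0.32 beside 0 over all loci. From 1 to 3 days of darkness 30 were higher and 20 lower (23.1% and 15.4%, beside 13.5% and 14.5%), with a median of 0.02 beside -0.03. From 3 to 5 days 16 were higher and 5 lower (12.3% and 3.85%, beside 14.5% and 4.79%). After 60 min of light 24 were higher and 18 lower (18.5% and 13.8%, beside 14.8% and 12.8%). After 24 h 20 were higher and 17 lower (15.4% and 13.1%, beside 11.6% and 14.4%). The shares of these last comparisons lay nearer those of all loci than the share of higher loci after 30 min did.

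Other inhibitors were looked up by product name in 6 lists, which held 29 loci beside the chosen rows, 18 of them with at least 1 FPKM in some library. From 1 to 3 days of darkness 4 of these 18 were at least 2-fold higher (22.2%, beside 13.5% of all loci) and 0 lower (beside 14.5%). The median log2 difference was 0.35, beside -0.03 over all loci. From 3 to 5 days 3 were higher and 1 lower (16.7% and 5.56%, beside 14.5% and 4.79%), shares near those of all loci, with a median of 0.07 beside 0.27. After 30 min of light 6 were higher and 2 lower (33.3% and 11.1%, beside 9.49% and 11.4%), with a median of 0.44 beside 0. Of the 6, ZS01g0037400, ZS03g0540300 and ZS03g0087400 passed the rule narrowly, with log2 differences of 1.08, 1.02 and 1.05. The others, ZS01g0031500, ZS01g0034000 and ZS01g0485800, rose from low 5-day values of 0, 0.738 and 0.0457 FPKM. After 60 min 4 were higher and 2 lower (22.2% and 11.1%, beside 14.8% and 12.8%), with a median of -0.16 beside 0.01. After 24 h 3 were higher and 1 lower (16.7% and 5.56%, beside 11.6% and 14.4%), with a median of 0.34 beside 0. With 18 loci, 1 locus moves such a share by 5.56 percentage points.

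Among Bowman-Birk inhibitors the levels of the loci went different ways. The locus ZS01g0031900, a putative Bowman-Birk trypsin inhibitor near the merged row in gene number, had 5.19 FPKM at 1 day of darkness, 81.1 at 3 days and 75.1 at 5 days. In light it stood at 57.2, 38.3 and 104 FPKM after 30 min, 60 min and 24 h. Its lowest library was thus the one in which the merged row was highest, with a log2 difference of 3.73 from 1 to 3 days.

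The homologue of WIP1, an inhibitor known from maize seedlings as wound-induced, was abundant throughout. This locus, ZS01g0037400, had 201, 194 and 122 FPKM at 1, 3 and 5 days of darkness, and 258, 104 and 89.7 FPKM in the 30-min, 60-min and 24-h light libraries. It was 2-fold higher after 30 min than at 5 days (log2 difference 1.08), the same direction as the inhibitor cluster, and near level between 1 and 3 days (-0.05).

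The remaining Bowman-Birk loci were low. ZS01g0034000 stood at 6.95, 6.04 and 0.738 FPKM in the 3 dark libraries and at 9.76, 4.48 and 13.7 in the 3 light libraries. The row of ZS01g0031500 with an inhibitor name was listed at 0 at 1 and 5 days and at 24 h, and stood at 0.285 at 3 days, 8.15 after 30 min and 10.6 after 60 min. Assembled transcripts without a product name under the same gene name stood at 1.42 FPKM after 30 min and at 1.22 after 24 h. ZS01g0031400 reached 1.63 FPKM at most. Values of such close relatives are uncertain where reads fit several of them.

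The other locus that the name search placed beside the cluster, PSI-1.2 (ZS03g0674000), is named after a pepper seed inhibitor of trypsin and chymotrypsin that belongs to the potato inhibitor II family, and was lowest at 1 day. The 3 dark libraries gave 2.25, 3.27 and 9.74 FPKM, and the light libraries 15.3, 27.5 and 18.0 in order of time. Its level lay above the 5-day dark level in all 3 light libraries, at 2-fold or more only after 60 min (log2 difference 1.41).

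Cystatins inhibit cysteine proteases of the papain type. Cysteine proteinase inhibitor 1 (ZS01g0656300), known as oryzacystatin I, stood at 19.5 FPKM at 1 day, 284 at 3 days and 208 at 5 days of darkness. In light it stood at 212, 134 and 168 FPKM after 30 min, 60 min and 24 h. The 1-day library was thus its lowest, and the log2 difference from 1 to 3 days was 3.79. Inhibitors 8 (ZS03g0369700) and 12 (ZS01g0180000) varied less, between 18.8 and 35.5 and between 13.7 and 25.0 FPKM.

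Serpins, which trap serine proteases by a change of shape, were low, with 3 of 8 loci reaching 1 FPKM. The highest, the probable non-inhibitory serpin-Z9 (ZS11g0129200), ranged from 0.794 FPKM at 1 day to 6.13 after 24 h of light. Serpin-Z12 (ZS01g0178000) ranged from 2.14 to 5.98 FPKM, and serpin-ZXB (ZS03g0540400) from 0.0752 at 1 day to 3.11 at 5 days. None of the 3 was highest at 1 day.

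Cereal amylase and trypsin inhibitors were measured at 3 of 7 loci. The alpha-amylase/trypsin inhibitor ZS10g0072000 had 15.7, 24.4 and 60.2 FPKM in the dark, then 28.8, 25.5 and 18.0 in light, at least 2-fold below the 5-day level in each light library. Seed allergenic protein RAG2 (ZS07g0142500) and the alpha-amylase/subtilisin inhibitor (ZS04g0638000) reached 1.53 and 1.05 FPKM at most.

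Inhibitors outside these families included the protease inhibitor-like locus ZS01g0485800, which was listed at 0 at 1 and 3 days and stood at 0.0457 FPKM at 5 days. After 30 min, 60 min and 24 h of light it stood at 3.10, 8.27 and 37.4 FPKM. Each light library was thus above every dark library, with a log2 difference of 5.20 from 5 days of darkness to 24 h. A putative serine protease inhibitor, ZS03g0540300, ranged from 20.1 to 44.3 FPKM. ZS03g0087400, whose name also covers seed storage and lipid-transfer proteins, ranged from 1.35 to 11.0.

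**Figure D3:**
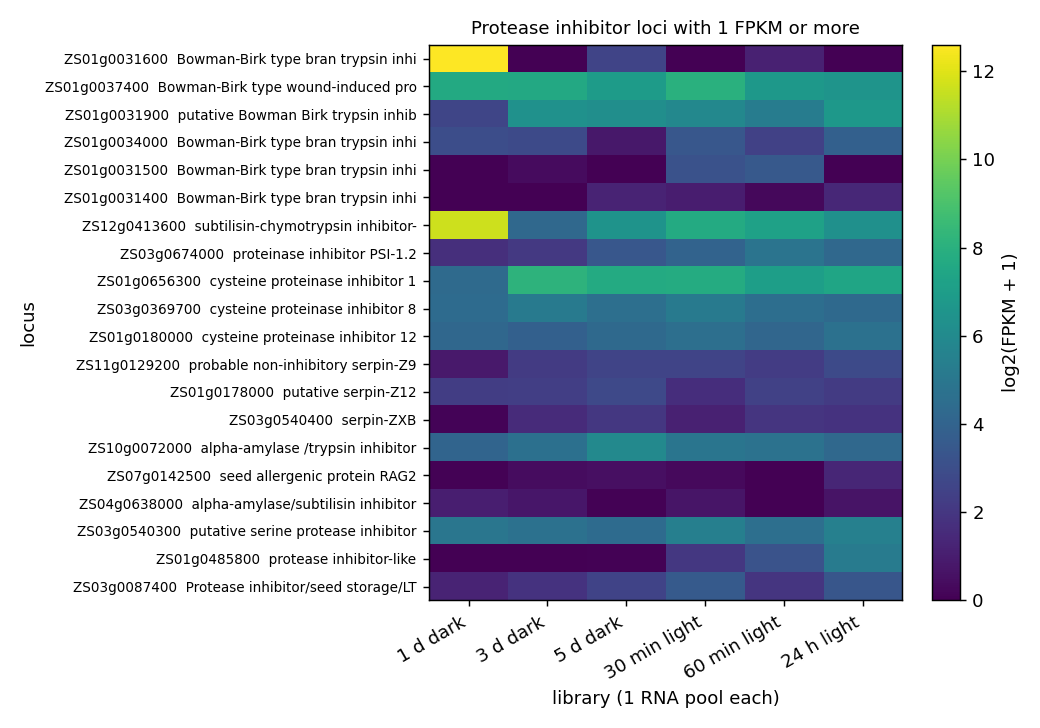
Level of every protease inhibitor locus that reached 1 FPKM, as log2(FPKM + 1) by colour, with loci in rows (first gene name and start of the product name) and the 6 libraries in columns. The merged Bowman-Birk row and the inhibitor cluster, at 6222 and 3204 FPKM, are the brightest cells of the 1-day column. Along their own rows, cysteine proteinase inhibitor 1 and ZS01g0031900 are darkest in that column, though other loci are darker still there.

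Proteases were looked up by product name in 5 lists with 93 loci, of which 71 reached 1 FPKM. From 1 to 3 days of darkness 19 were at least 2-fold higher (26.8%) and 18 lower (25.4%), beside 13.5% and 14.5% of all loci. From 3 to 5 days 9 were higher and 7 lower (12.7% and 9.86%, beside 14.5% and 4.79%). After 30 min of light 7 were higher and 4 lower (9.86% and 5.63%, beside 9.49% and 11.4%). After 60 min 15 were higher and 7 lower (21.1% and 9.86%, beside 14.8% and 12.8%), and after 24 h 10 and 6 (14.1% and 8.45%, beside 11.6% and 14.4%). Several of these shares, such as that of higher loci after 30 min, lay near those of all loci.

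Subtilisin-like proteases are the plant relatives of the bacterial enzyme that gives the cluster its name. From 1 to 3 days 7 of 16 loci were lower and 1 higher (43.8% and 6.25%, beside 14.5% and 13.5% of all loci). The median log2 difference was -0.47, beside -0.03 over all loci. SBT1.7 (ZS03g0710500) had 20.7, 5.21 and 3.60 FPKM in order of days in the dark, and 6.42, 32.3 and 7.33 in order of time in light. SBT1.8 (ZS10g0305300) had 16.9, 7.61 and 12.0 FPKM in the dark, then 7.09, 24.7 and 6.04 in light. These loci were high at 1 day and again at 60 min, whereas the inhibitor cluster at 60 min was below its 30-min level. SBT2.6 (ZS06g0635200) stood at 30.7 FPKM at 1 day and between 10.3 and 14.4 in the other libraries.

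Vacuolar processing enzymes, which activate other vacuolar proteins by cutting them, were higher at 3 days than at 1 day in 3 of 4 loci. The share was 75%, beside 13.5% of all loci, with a median of 2.95 beside -0.03. The locus ZS01g0428400 had 6.31, 169 and 105 FPKM in the dark, then 106, 28.7 and 117 in light. ZS05g0609000 had 0.548 FPKM at 1 day against 46.9 at 3 days, and ZS04g0648500 had 22.7 and 43.4. The 1-day library was the lowest of the 6 for ZS01g0428400 and ZS05g0609000.

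The name search for papain-type cysteine proteases gave 5 of 17 loci higher at 3 days than at 1 day and 2 lower. These were 29.4% and 11.8%, beside 13.5% and 14.5% of all loci, with a median of 0.24 beside -0.03. The search also took in a calpain-type protease (ZS02g0598300) and ATG4B (ZS04g0805400). A row that merges a cysteine protease with the recombination protein SPO11-1 (ZS03g0694500) was among the higher loci, at 1.25. Cysteine proteinase 1 (ZS04g0344800) had 4.64, 224 and 77.6 FPKM in the dark, then 133, 27.3 and 76.4 in light. A second locus of that name, ZS02g0318400, had 59.4, 232 and 231 FPKM in the dark, then 247, 117 and 293 in light. Cathepsin B (ZS05g0275000) ranged from 67.2 FPKM at 1 day to 184 after 30 min of light. In all 3 loci the 1-day library was the lowest and the 60-min library the next lowest.

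Serine carboxypeptidases, which trim proteins from the carboxyl end, had 2 of 12 loci higher at 3 days than at 1 day and 4 lower. These were 16.7% and 33.3%, beside 13.5% and 14.5% of all loci, with a median of -0.12 beside -0.03. Serine carboxypeptidase 3 (ZS02g0022100) had 12.9 FPKM at 1 day against 92.8 at 3 days, and II-2 (ZS06g0100800) had 6.48 and 26.4. The carboxypeptidase-like 13 locus (ZS03g0661900) went the other way, with 29.1 and 8.69.

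Aspartic proteases had 8 of 22 loci higher at 3 days than at 1 day and 5 lower. These were 36.4% and 22.7%, beside 13.5% and 14.5% of all loci, with a median of 0.35 beside -0.03. The merged locus ZS05g0046100 and ZS05g0046200 had 61.9 FPKM at 1 day against 182 at 3 days, and oryzasin-1 (ZS05g0583800, merged with a further gene), an aspartic protease known from rice seeds, had 65.1 and 151. ZS02g0607200, named after a guard cell protease, ranged from 59.0 to 90.6 FPKM in 5 libraries and stood at 6.79 after 24 h of light.

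**Figure D4:**
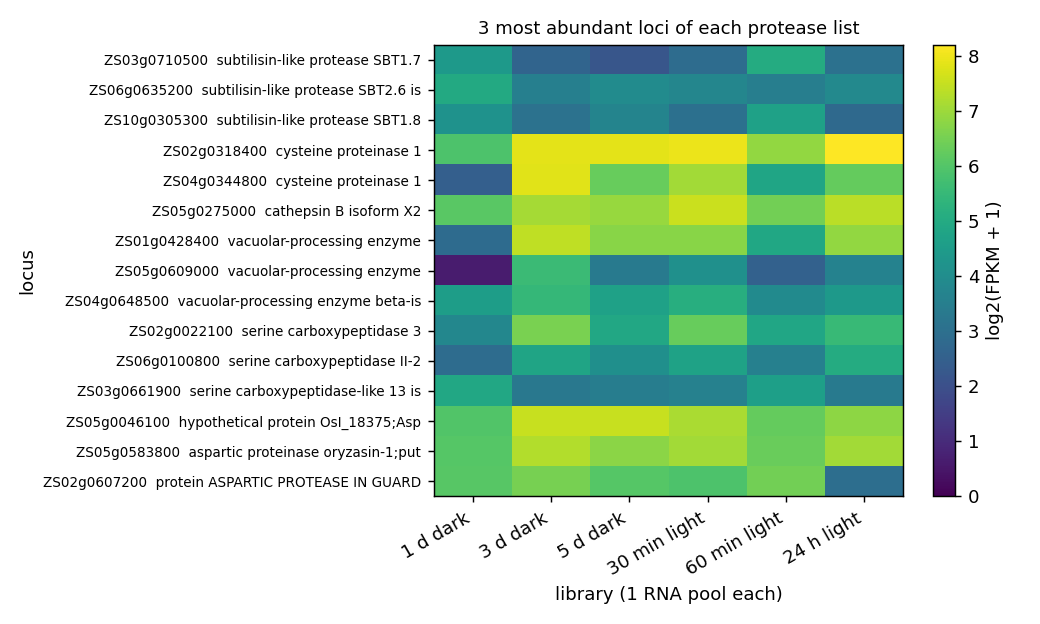
Level of the 3 most abundant loci of each of the 5 protease lists, as log2(FPKM + 1) by colour, with loci in rows and the 6 libraries in columns. Loci differ in the 1-day column. Vacuolar processing enzyme ZS05g0609000, at 0.548 FPKM, and cysteine proteinase 1 (ZS04g0344800), at 4.64 FPKM, are darkest there along their own rows. SBT2.6 (ZS06g0635200), at 30.7 FPKM, and the carboxypeptidase-like 13 locus (ZS03g0661900), at 29.1 FPKM, are brightest there along theirs.

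The loci whose levels followed the chosen rows most closely over the 6 libraries were ranked by Pearson's r of log2(FPKM + 1). Ranked were 9741 loci that have a product name and reach 10 FPKM in some library, without the chosen rows. The row of ZS01g0031700 alone has no product name and could not enter either. With 1 high library, r mainly measures the step between that library and the rest, and all points share these libraries. For the merged Bowman-Birk row the closest were a GLR4 glutamate receptor homologue (ZS07g0432600, r = 0.99) and ent-kaurene oxidase 2 (ZS06g0484500, r = 0.99), an enzyme of gibberellin synthesis. Their levels were 13.1 and 30.0 FPKM at 1 day, against 6.58 and 8.18 at 3 days. ZS04g0738200 (r = 0.99), ZS01g0481800 (r = 0.98) and the transcription factor ILI4 (ZS06g0148700, r = 0.98) followed. ILI4 stood at 87.3 FPKM at 1 day and at no more than 0.793 later.

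For the lone ZS12g0413600 transcript the 5 closest, with r between 0.99 and 1.00, were ZS07g0423300, ZS05g0287800, expansin-A1 (ZS04g0221900), which loosens cell walls, ZS01g0654200 and again ILI4. Expansin-A1 stood at 116 FPKM at 1 day and between 1.94 and 3.15 later.

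For the inhibitor cluster the closest were a homologue of ras GTPase-activating protein-binding protein 1 (ZS04g0443900, r = 0.98), a GTP-binding protein (ZS03g0137400, r = 0.98), ZS06g0074400 (r = 0.98), reticulon-like protein B1 (ZS01g0602200, r = 0.98), and a receptor-like kinase (ZS01g0797900, r = 0.97). Their steps were far smaller than that of the cluster: ZS04g0443900 stood at 52.9 FPKM at 1 day, 22.2 at 3 days and 36.5 after 30 min of light, and ZS01g0602200 ranged only from 69.1 to 82.6. No locus with a protease inhibitor name was among those named for any of the 3 rows. The chosen rows had been left out of the ranking, so they could not be named for each other.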

How the data were processed

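Values used are FPKM as the authors deposited them, 1 column a library, per the file headers. Which aligner and counter made them is not given in the sources used here. Bowtie 0.12.2 and mm8, a mouse build, appear in the submitters' processing notes without a role. Total RNA was extracted with TRIzol and poly(A) RNA sequenced in paired ends, per the labels' protocols. Of 31872 gene names, 0 matched the reference table of assembly ASM3414082v1, so product names are the deposited ones, and no coordinates or sequences are printed. FPKM values hold no counts; total depth is unknown, and no counting interval is given. Summed FPKM lay between 336212 and 359808 per library. Several genes are merged in 730 loci.

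Differences are on the log2(FPKM + 1) scale, where those of low loci are understated, and were computed with Python 3.11.15 and pandas 2.3.3, over 23787 loci with at least 1 FPKM in some library. Higher or lower means 2-fold on this scale, which is no test; the code was tested on simulated data. Lists were searched by product name, and PSI-1.2 counts in 2 of them. Named are the 4 loci with the highest maximum of each inhibitor list, the 3 of each protease list, the 5 closest by correlation, and loci within 10 gene numbers of a chosen gene, of which those without inhibitor names are left out. The loci and lists were chosen with earlier results of these data known. Alternatives were a pseudocount of 0.1, no filter, a 4-fold rule, scaling to library sums or the median ratio of loci, Spearman's rho, and likeness without the 1-day library; library sums without ZS07g0251700 were added after seeing the data.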

Additional observations from a re-analysis of the deposited data

How the results depend on the processing

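Every difference given for the inhibitor cluster and the merged Bowman-Birk row, where neither value was 0, kept its direction and its side of the 2-fold rule with a pseudocount of 0.1 and under all 3 scalings, of which library sums without ZS07g0251700 was chosen after seeing the data. The cluster's difference from 1 to 3 days lay between -7.44 and -7.05, from 3 to 5 days between 1.78 and 2.24, and from 5 days to 30 min of light between 1.21 and 1.24. The median over all loci from 1 to 5 days of darkness was 0.21 as deposited and 0.02 with median-ratio scaling, and 55.5% in place of 67.3% of the called loci were then higher at 5 days. From 1 to 3 days 48.3% of called loci were higher, and 63.1% with library sums without ZS07g0251700. No paired analysis was possible because every group holds 1 library.

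Counts moved with the rule of size, since a smaller pseudocount shrinks low loci less; the cause of the other shifts was not tested. With a pseudocount of 0.1, 5239 loci were higher and 5260 lower from 1 to 3 days, 5896 and 1952 from 3 to 5 days, and 3791 and 4198 after 30 min of light. After 60 min 4626 were lower, after 24 h 4260 were higher, and 17 proteases were called after 30 min. With median-ratio scaling 1775 loci were lower from 3 to 5 days. Under the 4-fold rule, which calls fewer loci by construction, the higher and lower loci were 924 and 812 from 1 to 3 days, 728 and 222 from 3 to 5 days, 400 and 671 after 30 min, 885 and 486 after 60 min, and 446 and 776 after 24 h. In the same order, other inhibitors called were 2, 1, 2, 2 and 2, and proteases 16, 3, 4, 7 and 4.

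The loci named as most alike depended on the measure. With Spearman's rho, 0 of the 5 loci were shared for the merged Bowman-Birk row, 1 for the lone ZS12g0413600 transcript and 0 for the cluster. Without the 1-day library 0 were shared for the merged row and 0 for the cluster, and the lone transcript had no value above 0.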
